A study of Homo sapiens with 8 samples.

Results

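The genes described here were 10 ERK feedback genes in cholangiocarcinoma (CCA) cells, chosen by name: the phosphatases DUSP4, DUSP5 and DUSP6, the Sprouty and Spred genes SPRY2, SPRY4, SPRED1 and SPRED2, the ETS factors ETV4 and ETV5, and PHLDA1. All 10 were found by symbol among the 56269 genes of both deposited tables, and all 10 were among the 16060 genes that reached 1 TPM in at least 2 libraries and were tested. TPM is a read count divided by transcript length and scaled to a fixed total per library, so that levels can be set against each other between genes. RNA was sequenced from 2 human CCA cell lines, SNU1079 and SSP25, after 48 hours of 4 treatments. They were BETp + mTORi (both drugs, with no doses in the labels), BETp (40 nM ARV825, which recruits the cereblon ubiquitin ligase to BET bromodomain proteins and so leads to their degradation), mTORi (50 nM AZD8055, which blocks the mTOR kinase in both of its complexes) and vehicle (0.01% DMSO). There was 1 library per line and treatment, 8 in all. All are labelled wildtype, although the study's own panel sequencing lists IDH1 and ARID1A mutations in SNU1079.

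ERK, the last kinase of the RAS-RAF-MEK cascade, passes growth factor signals to the nucleus. Among the genes it turns on are its own brakes, so their mRNA is widely used as a readout of ERK output. DUSP4 and DUSP5 are nuclear phosphatases and DUSP6 is a cytoplasmic one, and each acts on MAP kinases such as ERK. Sprouty and Spred proteins restrain signalling at the level of RAS and RAF, and SPRED1 does so by bringing neurofibromin to RAS. ETV4 and ETV5 belong to the PEA3 branch of the ETS transcription factors, and PHLDA1 is a pleckstrin homology-like protein induced by growth factors. In bile duct cancers, activation of RAS or of growth factor receptors is a common way into this cascade.

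The RefSeq promoter table (GRCh38.p14) held 9 start regions for 6 of the genes, with 3 for SPRY2 and 2 for SPRED2, each of 300 bases (250 before the transcription start and 50 from it on). Of the genes with an entry, DUSP6 and PHLDA1 are shown because their libraries with BETp (DUSP6) or with mTORi (PHLDA1) all lay below those without the drug in both lines. Capitals mark GGAA, the core that ETS factors recognise, on either strand (TTCC on the strand shown). The same 300 bases were found once in GRCh37, at chr12:89746229-89746528 for DUSP6 and chr12:76425507-76425806 for PHLDA1, both on the minus strand.
DUSP6: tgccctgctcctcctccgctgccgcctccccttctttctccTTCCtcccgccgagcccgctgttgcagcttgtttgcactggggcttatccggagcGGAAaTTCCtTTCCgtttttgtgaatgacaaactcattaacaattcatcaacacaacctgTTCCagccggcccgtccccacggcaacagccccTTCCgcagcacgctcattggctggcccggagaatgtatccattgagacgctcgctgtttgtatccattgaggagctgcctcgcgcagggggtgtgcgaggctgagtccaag
PHLDA1: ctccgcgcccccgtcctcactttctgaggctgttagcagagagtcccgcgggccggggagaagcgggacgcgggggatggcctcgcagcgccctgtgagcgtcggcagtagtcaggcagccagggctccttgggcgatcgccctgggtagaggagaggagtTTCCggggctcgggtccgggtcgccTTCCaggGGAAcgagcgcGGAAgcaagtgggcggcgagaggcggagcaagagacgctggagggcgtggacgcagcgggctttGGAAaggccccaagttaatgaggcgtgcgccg
DUSP6 held 6 GGAA matches in these bases and PHLDA1 held 5, and all 9 regions held at least 1. GGAA is so short that 95.5% of the 35116 promoters in the table held it on either strand. The longer ETS letters CCGGAAG, which contain GGAA, were in 0 of the 9 regions, against 10.3% of all promoters. The AP-1 letters TGANTCA were in 1 of the 9, a SPRED2 region with 2 matches, against 7.71% of all promoters. The cyclic AMP response letters TGACGTCA (1.85% of all promoters), the E-box CACGTG (7.26%) and the serum response element or CArG box (1.29%) were in 0 of the 9. GGAA is contained in CCGGAAG, and no other of these motifs contains another. Of the GGAA matches of DUSP6, 3 lay between positions -154 and -141 from the start. A match is a run of letters and not a measured binding site.

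The libraries were checked against their labels as CCA cells. The biliary epithelial markers KRT7, KRT8, KRT18, KRT19, SOX9 and EPCAM summed to 7498 to 10558 TPM in SNU1079 and 1915 to 2390 TPM in SSP25, but EPCAM itself was at 0.90 to 1.74 TPM in SSP25. Of 4 hepatocyte markers, which summed to at most 3.70 TPM, ALB did not exceed 0.21 TPM in any library. Fibroblast markers summed to 274 to 1004 TPM in SNU1079, nearly all of it COL1A1, and to 1.34 to 4.45 TPM in SSP25, while COL3A1 and DCN did not reach 1 TPM in SNU1079. The fourth, PDGFRB, was at 0.78 to 1.84 TPM in SNU1079 and 0.35 to 1.03 TPM in SSP25 and was called higher in SNU1079 (log2 difference 0.55 ± 0.20, adjusted p = 0.0333 by limma), a call lost in 7 of 13 alternatives. Of 4 leukocyte and endothelial markers only CD68 reached 1 TPM, and PTPRC did not exceed 0.24 TPM. CD68 was far above that floor, at 76.4 to 85.5 TPM in SNU1079 and 141 to 210 TPM in SSP25. It was called lower in SNU1079 (log2 difference -1.08 ± 0.10, adjusted p = 2.57e-05 by limma). Across genes, log2 values correlated at r = 0.975 to 0.986 between libraries of the same line and at 0.789 to 0.807 between lines. The number of genes at 1 TPM or above was 13308 to 14526 per library. Read depth cannot be recovered from TPM and is unknown.

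On GRCh37 with the GENCODE 44 annotation, DUSP4 lies on chromosome 8 (29190581 to 29208201, minus strand), DUSP5 on chromosome 10 (112257665 to 112271291, plus strand) and DUSP6 on chromosome 12 (89741012 to 89746278, minus strand). SPRY2 lies on chromosome 13 (80910111 to 80915261, minus strand), SPRY4 on chromosome 5 (141689992 to 141706020, minus strand), SPRED1 on chromosome 15 (38545037 to 38649450, plus strand) and SPRED2 on chromosome 2 (65537985 to 65659771, minus strand). ETV4 lies on chromosome 17 (41605212 to 41656988, minus strand), ETV5 on chromosome 3 (185764103 to 185828107, minus strand) and PHLDA1 on chromosome 12 (76419227 to 76425556, minus strand). The canonical transcripts of SPRY2, SPRY4 and PHLDA1 have 2 exons each, and those of ETV4 and ETV5 have 13 each.

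All 10 genes were expressed in both lines. In SNU1079, PHLDA1 had the highest mean level (40.4 ± 5.23 TPM, SD over 4 libraries of different treatments), followed by SPRED2 (16.4 ± 2.75 TPM) and ETV5 (15.8 ± 6.07 TPM). DUSP5 followed at 10.9 ± 2.21 TPM, ETV4 at 8.25 ± 4.87 TPM, SPRY2 at 6.21 ± 1.25 TPM and SPRED1 at 5.51 ± 0.61 TPM. SPRY4 (3.02 ± 1.20 TPM), DUSP4 (2.82 ± 0.79 TPM) and DUSP6 (2.22 ± 0.21 TPM) were the lowest. PHLDA1 stood clear of all others in this line, while from SPRED2 down neighbours in this order had overlapping ranges, except SPRED1 and SPRY4.
In SSP25 the order began with PHLDA1 (53.3 ± 13.6 TPM) and DUSP4 (52.5 ± 5.75 TPM), whose ranges overlapped. ETV5 (37.7 ± 5.84 TPM), DUSP5 (29.0 ± 5.89 TPM) and DUSP6 (17.9 ± 4.19 TPM) came next. SPRED2 (14.9 ± 1.77 TPM), SPRY2 (13.0 ± 2.04 TPM), ETV4 (9.79 ± 3.98 TPM), SPRED1 (8.12 ± 1.30 TPM) and SPRY4 (4.94 ± 0.89 TPM) made up the lower end. In this line the ranges of DUSP4 and ETV5 did not overlap, nor did those of DUSP5 and DUSP6 or of SPRED1 and SPRY4, and the other neighbours overlapped. DUSP4 was thus ninth of 10 in SNU1079 and second in SSP25, whereas PHLDA1 was first in both. The 10 genes together summed to 95.2 to 125 TPM in SNU1079 and 224 to 285 TPM in SSP25.

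**Figure D1:**
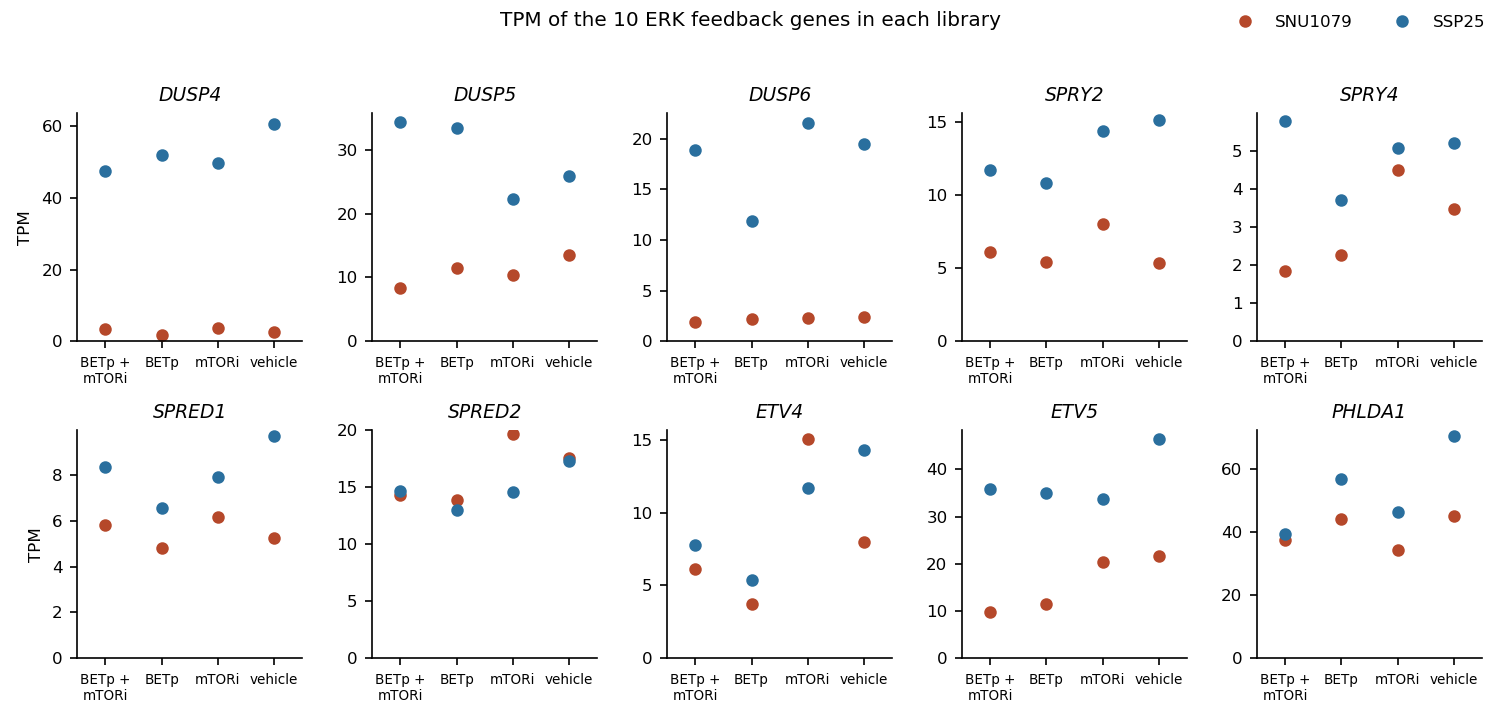
TPM (vertical axis, from 0, own scale in each panel) of the 10 genes in each library, 1 point per library, by treatment (horizontal axis) and line (colour). DUSP4 sits at 1.81 to 3.59 TPM in SNU1079 and 47.6 to 60.7 TPM in SSP25, and both ETV4 libraries with BETp sit below both without it in each line.

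The first comparison asked how the 2 lines differ in these genes, with every treatment counted once per line. The genes were mostly lower in SNU1079: 8 of 10 passed the test, all 8 in that direction, with the largest differences in DUSP4 and DUSP6. The comparison used limma on log2(TPM + 1), and its p-values were adjusted over every gene tested (Benjamini-Hochberg). It called 75.6% of the genes tested, and 36.6% as lower in SNU1079, so a call between the lines was common in itself. The median log2 difference was -0.78 for the 10 genes and 0.05 for all genes. TPM was computed within each library and the lines were deposited as separate tables, so line and table or batch cannot be told apart. The 4 libraries of a line were different treatments and not replicate cultures. In bulk RNA, fewer cells with a transcript and less of it per cell cannot be told apart.

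DUSP4 was at 3.29 (BETp + mTORi), 1.81 (BETp), 3.59 (mTORi) and 2.58 TPM (vehicle) in SNU1079, against 47.6, 52.0, 49.8 and 60.7 TPM in the same order in SSP25. Its log2 difference was -3.83 ± 0.15 (SE, adjusted p = 2.00e-07), and it was 13.9 to 28.7 times lower in SNU1079 under matched treatments. DUSP6 was at 1.92, 2.21, 2.33 and 2.41 TPM in SNU1079 in that order, against 18.9, 11.9, 21.5 and 19.4 TPM in SSP25. Every SNU1079 library lay below every SSP25 library for both genes, and DUSP6 was 5.38 to 9.82 times lower in SNU1079 (log2 difference -2.53 ± 0.15, adjusted p = 1.52e-06).
DUSP5 was at 8.27, 11.5, 10.3 and 13.5 TPM in SNU1079, against 34.4, 33.5, 22.3 and 25.9 TPM in SSP25, again in the order BETp + mTORi, BETp, mTORi, vehicle. The lines did not overlap, and the fold was smaller than for the other phosphatases (1.91 to 4.16 times lower in SNU1079, log2 difference -1.33 ± 0.16, adjusted p = 1.18e-04).

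Among the Sprouty and Spred genes, SPRY2 was at 5.34 to 8.02 TPM in SNU1079, against 10.8 to 15.1 TPM in SSP25 (log2 difference -0.96 ± 0.12, adjusted p = 1.15e-04). SPRED1 was at 4.79 to 6.18 TPM in SNU1079, against 6.55 to 9.69 TPM in SSP25 (-0.48 ± 0.12, adjusted p = 0.00681). SPRY4 ranged over 1.85 to 4.50 TPM in SNU1079 and 3.70 to 5.79 TPM in SSP25, so its libraries overlapped although the test called it lower in SNU1079 (-0.60 ± 0.18, adjusted p = 0.0141). With no filter on low values that call was lost (adjusted p = 0.108). SPRED2 was at 13.9 to 19.7 TPM in SNU1079 and 13.1 to 17.3 TPM in SSP25 and was not called (0.12 ± 0.10, 95% interval -0.11 to 0.35, adjusted p = 0.304). It was the only member whose mean log2 level was higher in SNU1079.
Of the ETS factors, ETV5 was at 9.77, 11.4, 20.3 and 21.7 TPM in SNU1079, against 35.8, 35.0, 33.7 and 46.4 TPM in SSP25, and was lower in SNU1079 (-1.27 ± 0.17, adjusted p = 1.74e-04). ETV4, its close relative, was not called between the lines (-0.29 ± 0.17, 95% interval -0.68 to 0.11, adjusted p = 0.161). PHLDA1 was lower in SNU1079 by a small amount (-0.37 ± 0.10, adjusted p = 0.00841), with overlapping libraries of 34.4 to 45.3 TPM in SNU1079 and 39.4 to 70.6 TPM in SSP25. Its call was lost under quantile normalization (adjusted p = 0.111), when all values were rescaled without mitochondrial genome genes (0.0662) and without the filter (0.0654). Mitochondrial genome genes took 14.4 to 19.2% of TPM in SNU1079 and 5.99 to 10.1% in SSP25.

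**Figure D2:**
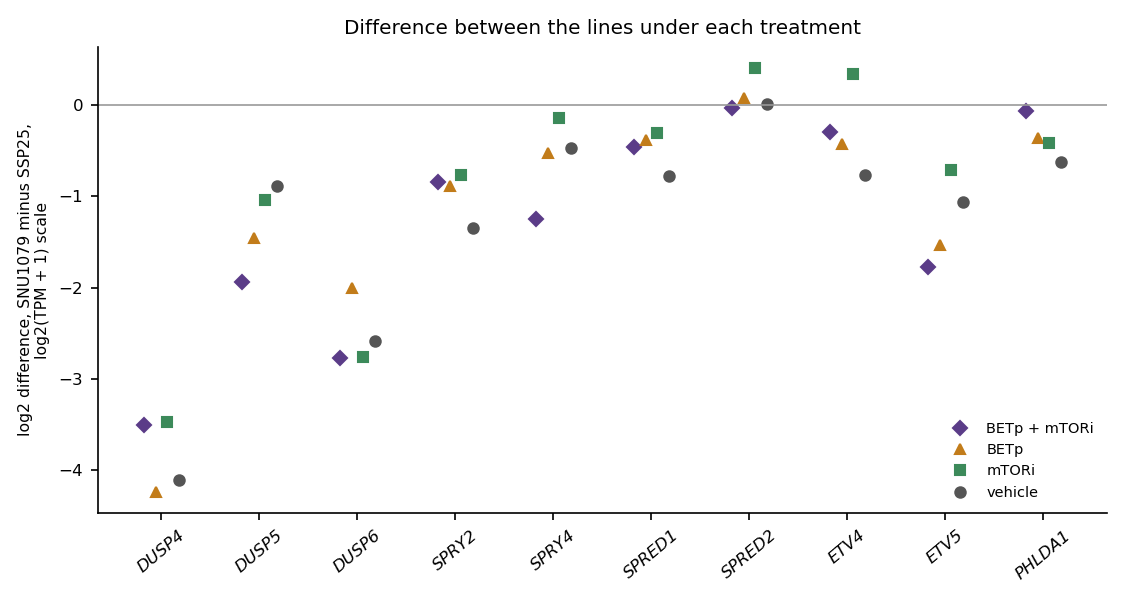
Log2 difference between the lines, SNU1079 minus SSP25, on the log2(TPM + 1) scale (vertical axis) for each gene (horizontal axis) and treatment (symbol), 1 library per line. DUSP4 and DUSP6 lie furthest below 0 under all 4 treatments, and SPRED2 and ETV4 have treatments on both sides of 0.

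Other genes of the pathway did not share this direction as a whole. Of all 16060 genes tested, 6275 were called higher and 5870 lower in SNU1079. Of 6 other MAP kinase phosphatases tested, 4 were called higher and 2 lower in SNU1079. DUSP1, an immediate early phosphatase, was at 136 to 258 TPM in SNU1079 and 12.7 to 16.8 TPM in SSP25 (log2 difference 3.56 ± 0.10, adjusted p = 3.47e-08), opposite in direction to DUSP4 and DUSP6. The 2 other Sprouty and Spred genes tested were called higher in SNU1079, at low levels: SPRY1 at 0.91 to 2.72 TPM there and at 0.08 to 0.73 TPM in SSP25, and SPRED3 at 2.84 to 5.04 TPM there and at 0.72 to 1.61 TPM in SSP25.
Of 12 other ETS factors, 3 were called higher and 7 lower. ETV1, the third PEA3 factor, was at 1.70 to 7.63 TPM in SNU1079 and 16.8 to 34.3 TPM in SSP25 (-2.48 ± 0.16, adjusted p = 3.24e-06). EHF, an epithelial ETS factor, was at 0 to 0.59 TPM in SNU1079 and 59.2 to 99.6 TPM in SSP25, while ELF3, another epithelial member, was at 135 to 339 TPM in SNU1079 and 6.33 to 15.0 TPM in SSP25.

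Upstream, the RAS-ERK cascade itself was split, with 6 of 16 genes called higher and 7 lower in SNU1079. ARAF, a RAF kinase, was at 21.0 to 27.3 TPM in SNU1079 and 68.4 to 74.3 TPM in SSP25 (log2 difference -1.53 ± 0.09, adjusted p = 1.35e-06), and HRAS was also lower in SNU1079 (-1.81 ± 0.08, adjusted p = 2.71e-07). Of 12 growth factor receptors and adaptors, 10 were called higher and 1 lower. FGFR4 was at 42.9 to 55.5 TPM in SNU1079 and 0.38 to 0.65 TPM in SSP25, and EGFR was at 61.6 to 83.9 TPM in SNU1079 and 27.3 to 30.6 TPM in SSP25.
Other genes used as ERK outputs were mostly higher in SNU1079, with 8 of 11 called higher and 3 lower. Over all 16060 genes tested the calls were 6275 higher and 5870 lower. CCND1, which encodes cyclin D1, was at 391 to 523 TPM in SNU1079 and 51.8 to 76.3 TPM in SSP25 (2.92 ± 0.07, adjusted p = 2.44e-08). PLAUR, the urokinase receptor, ran the other way at 3.0 to 3.42 TPM in SNU1079 and 64.4 to 89.1 TPM in SSP25 (-4.21 ± 0.09, adjusted p = 1.37e-08).

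BETp was then compared over its presence, with each line's BETp + mTORi and BETp libraries set against its mTORi and vehicle libraries. Of the 10 genes only ETV4 passed the test, and it was lower with BETp (log2 change -0.97 ± 0.17, 95% interval -1.37 to -0.57, adjusted p = 0.0422). The comparison called 1.82% of all genes, and 1.36% as lower with BETp. The median change was -0.27 for the 10 genes and -0.08 for all genes tested, and 9 of the 10 estimates were below 0. Within the lines the median of the 10 genes was -0.24 in SNU1079 and -0.20 in SSP25. For BETp against vehicle it was -0.27 and -0.40, and for BETp + mTORi against mTORi -0.32 and -0.03, in that order. The p-values rest on 2 lines and on departures from additivity of the drugs, with 4 residual degrees of freedom.

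ETV4 was at 6.16 (BETp + mTORi) and 3.76 TPM (BETp) in SNU1079 with the drug, against 15.1 (mTORi) and 8.0 TPM (vehicle) without it. In SSP25 it was at 7.77 and 5.39 TPM with the drug, against 11.7 and 14.3 TPM without it. Libraries with BETp thus lay below those without it in both lines, and in the 4 matched pairs ETV4 was lower by 33.5% to 62.3%. Within each line the lowest library was BETp alone. The call sat close to the threshold: adjusted p ranged from 0.0301 to 1.00 over the 15 alternatives, the highest without a cell line block, and the change from -0.82 to -1.16. It was kept with a filter at 5 TPM and without the mTORi library of SSP25 (adjusted p = 0.0367), and it was lost in each of the other 13. The mitochondrial share of TPM was higher in the library with BETp in all 4 pairs, and with it taken out the change was -0.95 (adjusted p = 0.0544).

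ETV5 was at 9.77 and 11.4 TPM with BETp in SNU1079, against 20.3 and 21.7 TPM without it. In SSP25 it was at 35.8 and 35.0 TPM with BETp, against 33.7 and 46.4 TPM without it, so the groups were apart in SNU1079 and overlapped in SSP25. The averaged change was -0.54 ± 0.17 (adjusted p = 0.120), made of -0.93 in SNU1079 and -0.16 in SSP25. The difference between these effects, SNU1079 minus SSP25, was -0.77 ± 0.20 and did not pass the test (adjusted p = 0.275).
DUSP6 was the other gene whose BETp libraries lay below the rest in both lines. It was at 1.92 and 2.21 TPM with BETp in SNU1079, against 2.33 and 2.41 TPM without it, and at 18.9 and 11.9 TPM with BETp in SSP25, against 21.5 and 19.4 TPM without it. The groups in SNU1079 lay close together (2.21 against 2.33 TPM at the nearest), and the averaged change of -0.28 ± 0.15 was not called (adjusted p = 0.291). Such separation in both lines, downward, held for 2 of the 10 genes and for 9.82% of all genes tested.

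The estimates of the remaining genes with BETp present against absent were between -0.41 and 0.12, and none was called. SPRY4 was at 1.85 and 2.27 TPM with BETp in SNU1079, against 4.50 and 3.47 TPM without it, but at 5.79 and 3.70 TPM with BETp in SSP25, against 5.07 and 5.21 TPM without it (averaged change -0.41 ± 0.18, adjusted p = 0.216). SPRED2 was at 14.4 and 13.9 TPM with BETp in SNU1079, against 19.7 and 17.6 TPM without it, and at 14.7 and 13.1 TPM with BETp in SSP25, against 14.6 and 17.3 TPM without it (-0.28 ± 0.10, adjusted p = 0.156). Both were apart in SNU1079 and overlapped in SSP25. SPRY2 (-0.26 ± 0.12, adjusted p = 0.231), SPRED1 (-0.16 ± 0.12, 0.473), DUSP4 (-0.18 ± 0.15, 0.496) and PHLDA1 (-0.11 ± 0.10, 0.530) had small negative estimates.
DUSP5 had the only positive one (0.12 ± 0.16, adjusted p = 0.706). It was at 8.27 and 11.5 TPM with BETp in SNU1079, against 10.3 and 13.5 TPM without it, and at 34.4 and 33.5 TPM with BETp in SSP25, against 22.3 and 25.9 TPM without it. The lines thus moved in opposite directions, by -0.25 in SNU1079 and 0.48 in SSP25, and the difference of -0.73 ± 0.15 did not pass the test (adjusted p = 0.235). In the test of line differences in the BETp effect, limma called 0 of the 10 genes and 0.00623% of all genes. At an unadjusted p under 0.05 there were 3 of the 10, against 1984 of the 16060 genes tested.

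**Figure D3:**
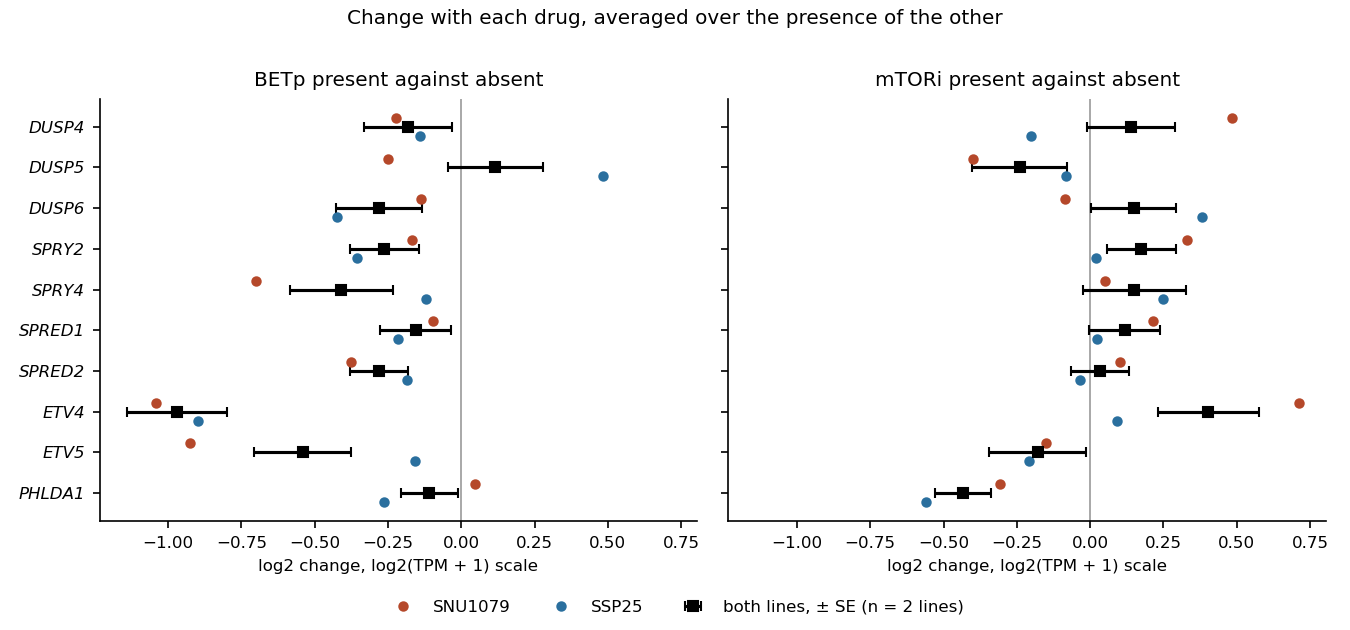
Log2 change on the log2(TPM + 1) scale (horizontal axis) of each gene with BETp present against absent (left) and mTORi present against absent (right). Squares are limma estimates over both lines with their SE, circles are the change within a line. ETV4 lies furthest left with BETp at -0.97, and PHLDA1 furthest left with mTORi at -0.43.

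Related genes outside the list gave few calls with BETp. Of 6 other MAP kinase phosphatases tested, 1 fell: DUSP10, which acts on p38 and JNK, was at 47.2 and 47.7 TPM with BETp in SNU1079, against 101 and 83.3 TPM without it, and at 40.5 and 39.6 TPM with BETp in SSP25, against 58.9 and 54.9 TPM without it (-0.72 ± 0.11, adjusted p = 0.0300). Of 12 other ETS factors 0 were called, 11 had estimates below 0 (8 under quantile normalization, 9 after rescaling without mitochondrial genome genes) and the median change was -0.26. ETV1 had the largest (-0.80 ± 0.16, adjusted p = 0.0553), with 1.70 and 2.22 TPM with BETp in SNU1079, against 3.84 and 7.63 TPM without it. In SSP25 its groups overlapped, at 16.8 and 23.4 TPM with BETp, against 22.2 and 34.3 TPM without it, and the change was -1.13 in SNU1079 and -0.46 in SSP25. The 3 PEA3 factors ETV1, ETV4 and ETV5 had the 3 largest negative estimates among the members and the other ETS factors together, but only ETV4 was called. ETS2, outside that branch, followed at -0.49 ± 0.13, close to ETV5 at -0.54 ± 0.17. In the other lists DUSP10, EPCAM, AREG (-0.57 ± 0.30), EPHA4 (-0.56 ± 0.12) and COL1A1 (-0.59 ± 0.18) also had estimates below that of ETV5.
Of 11 other ERK output genes 1 rose, the early growth response factor EGR1, at 7.22 and 9.58 TPM with BETp in SNU1079, against 2.96 and 3.79 TPM without it, and at 1.79 and 1.36 TPM with BETp in SSP25, against 0.29 and 0.40 TPM without it (1.02 ± 0.14, adjusted p = 0.0233). EGR1 and ETV4, both ERK outputs, were called in opposite directions. The RAS-ERK cascade had 0 of 16 genes called with BETp, and the growth factor receptors and adaptors 0 of 12. Of 2 other Sprouty and Spred genes tested 0 were called, and SPRY1 had the larger estimate (-0.45 ± 0.16, adjusted p = 0.152). The biliary marker EPCAM also fell with BETp (-0.57 ± 0.10, adjusted p = 0.0403), the only one of 6 biliary markers called, and those markers summed to 8798 to 10558 TPM with BETp and 7498 to 9428 TPM without it in SNU1079, and to 1915 to 2354 TPM with BETp and 2260 to 2390 TPM without it in SSP25. The part of the biliary markers in the change of ETV4 was not tested.

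mTORi was compared in the same way, with each line's BETp + mTORi and mTORi libraries set against its BETp and vehicle libraries. By limma 0 of the 10 genes were called, against 1.05% of all genes. At an unadjusted p under 0.05 there were 2 of the 10, against 3534 of the 16060 genes tested. The median change was 0.13 for the 10 genes and -0.11 for all genes tested, and 7 of the 10 estimates were above 0. Within the lines the median of the 10 genes was 0.08 in SNU1079 and -0.008 in SSP25. For mTORi against vehicle it was 0.18 and -0.25, and for BETp + mTORi against BETp -0.04 and 0.13, in that order. Over both lines the averaged median of the 10 genes was 0.26 under quantile normalization. It was 0.058 to 0.075 when any 1 of the 4 SNU1079 libraries was left out, 0.040 without the BETp library of SSP25 and 0.023 without the BETp + mTORi library of SSP25, where 5 of the 10 estimates were above 0.

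PHLDA1 came closest to the threshold, with lower values under mTORi. It was at 37.7 and 34.4 TPM with mTORi in SNU1079, against 44.3 and 45.3 TPM without it, and at 39.4 and 46.3 TPM with mTORi in SSP25, against 57.1 and 70.6 TPM without it. Libraries with the drug lay below those without it in both lines, as held for 1 of the 10 genes and for 13.3% of all genes tested. The averaged change was -0.43 ± 0.10 (95% interval -0.66 to -0.21, adjusted p = 0.0685). It passed the test only with the filter at 5 TPM (adjusted p = 0.0492).

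ETV4 had the largest estimate in the other direction (0.40 ± 0.17, adjusted p = 0.221). In SNU1079 it was at 15.1 TPM with mTORi alone, against 8.0 TPM with vehicle, and at 6.16 TPM with BETp + mTORi, against 3.76 TPM with BETp. In SSP25 it was at 11.7 TPM with mTORi alone, against 14.3 TPM with vehicle, and at 7.77 TPM with BETp + mTORi, against 5.39 TPM with BETp. ETV4 was thus higher with mTORi in 3 of 4 pairs, the exception being SSP25 without BETp.
The estimates of the other 8 genes with mTORi present against absent were between -0.24 (DUSP5) and 0.17 (SPRY2). DUSP4 was at 3.29 and 3.59 TPM with mTORi in SNU1079, against 1.81 and 2.58 TPM without it, and at 47.6 and 49.8 TPM with mTORi in SSP25, against 52.0 and 60.7 TPM without it. The lines were apart in opposite directions, by 0.48 in SNU1079 and -0.20 in SSP25, and the difference of 0.69 ± 0.17 was not called (adjusted p = 0.250). DUSP6 was at 1.92 and 2.33 TPM with mTORi in SNU1079, against 2.21 and 2.41 TPM without it, and at 18.9 and 21.5 TPM with mTORi in SSP25, against 11.9 and 19.4 TPM without it (difference between lines -0.47 ± 0.23, adjusted p = 0.429). In the test of line differences in the mTORi effect, limma called 0 of the 10 genes and 0% of all genes. At an unadjusted p under 0.05 there were 1 of the 10, against 2282 of the 16060 genes tested.

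Upstream, all 16 RAS-ERK cascade genes had estimates below 0 with mTORi (13 under quantile normalization), with a median of -0.23 (-0.090 under quantile normalization), and 1 fell, the adaptor GRB2, which links receptors to RAS activation. It was at 69.9 and 68.8 TPM with mTORi in SNU1079, against 90.8 and 93.0 TPM without it, and at 80.1 and 82.8 TPM with mTORi in SSP25, against 95.8 and 105 TPM without it (-0.35 ± 0.06, adjusted p = 0.0488). Under quantile normalization the median of all genes with mTORi was 0.00 and the estimate of GRB2 was -0.21 (adjusted p = 0.200). The call of GRB2 was lost in 14 of 15 alternatives, as were those of KRT8 and KRT18. Among 6 other MAP kinase phosphatases, 12 other ETS factors, 11 other ERK output genes and 2 other Sprouty and Spred genes 0 were called. DUSP1 (0.28 ± 0.10, adjusted p = 0.158), the ETS factor ELF3 (-0.69 ± 0.21, 0.115), the EGFR ligand AREG (-0.62 ± 0.30, 0.274) and SPRY1 (-0.37 ± 0.16, 0.214) had the largest estimates of these lists. Of 12 growth factor receptors and adaptors 0 were called, and IRS2, an insulin receptor substrate, had the largest estimate (0.57 ± 0.11, adjusted p = 0.0550). The biliary keratins KRT8 (-0.38 ± 0.06, adjusted p = 0.0428) and KRT18 (-0.51 ± 0.09, 0.0488) fell with mTORi, 2 of 6 biliary markers, which summed to 7498 to 8798 TPM with mTORi and 9428 to 10558 TPM without it in SNU1079 and to 1915 to 2260 TPM with mTORi and 2354 to 2390 TPM without it in SSP25. The part of these markers in the values of PHLDA1 was not tested.

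**Figure D4:**
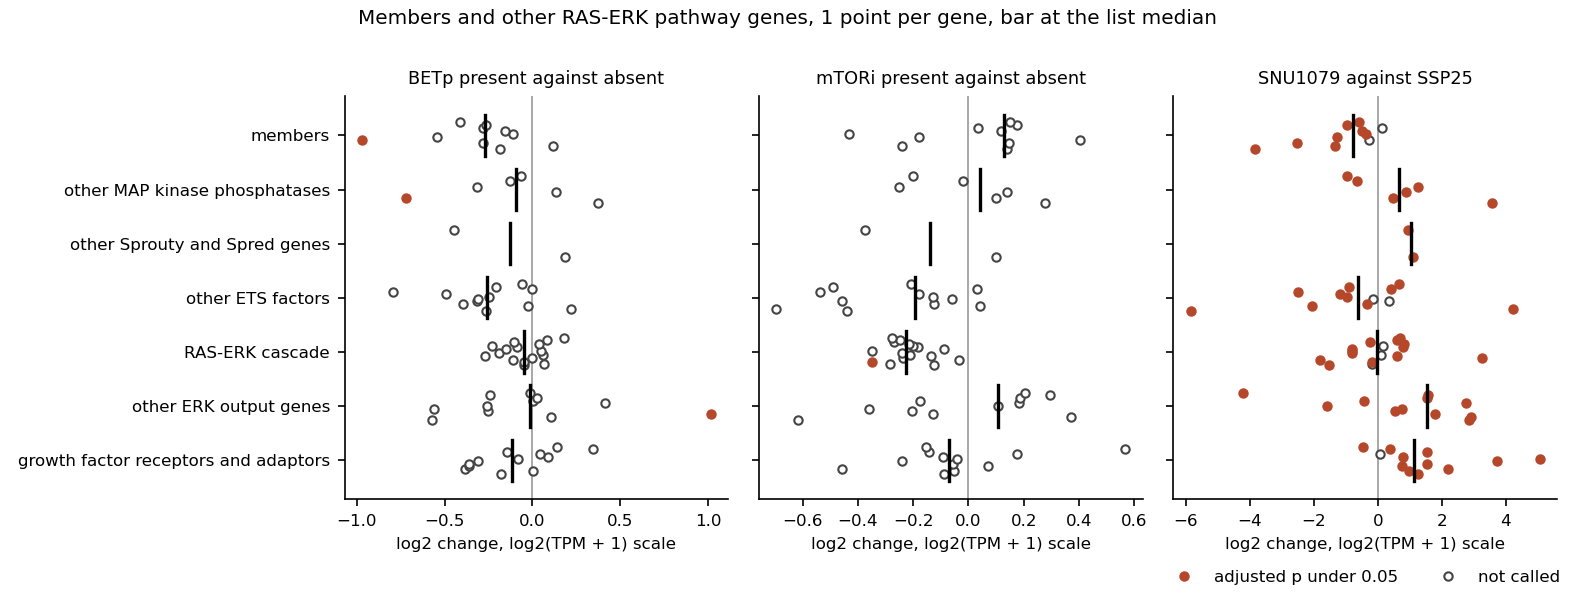
Log2 change on the log2(TPM + 1) scale (horizontal axis) of the 10 genes (members) and of other RAS-ERK pathway lists, 1 point per gene tested, filled where the adjusted p was under 0.05, with a bar at each list median. Calls are frequent between the lines (8 of the 10 genes) and few for either drug (1 of the 10 with BETp and 0 with mTORi).

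The pairwise comparisons between treatments, with the lines as the 2 replicates and 3 residual degrees of freedom, share libraries and are given side by side. With BETp + mTORi against vehicle limma called 0 of the 10 genes (2 at an unadjusted p under 0.05), against 1.81% of all genes, or 291 genes, a count that was 0 without the BETp + mTORi library of SSP25 and at most 145 without any other 1 library. Over all 16060 genes tested, 4148 had an unadjusted p under 0.05 in this comparison. All 10 estimates of the members were below 0, with a median of -0.19, close to the median of all genes (-0.19). Under quantile normalization 5 of the 10 were below 0. PHLDA1 (-0.54 ± 0.15, adjusted p = 0.0883), ETV5 (-0.72 ± 0.25, 0.132) and ETV4 (-0.57 ± 0.25, 0.213) had the largest estimates.
With BETp against vehicle 0 of the 10 were called, against 0.00623% of all genes. At an unadjusted p under 0.05 there were 2 of the 10, against 1429 of the 16060 genes tested. With mTORi against vehicle 0 of the 10 were called, against 0.0125% of all genes. Here 1 of the 10 had an unadjusted p under 0.05, against 1658 of the 16060. ETV4 had an estimate of -1.09 ± 0.25 with BETp (adjusted p = 0.382) and of 0.28 ± 0.25 with mTORi (adjusted p = 0.726). ETV5 had estimates of -0.63 ± 0.25 with BETp (adjusted p = 0.541) and -0.27 ± 0.25 with mTORi (0.731). PHLDA1 had estimates of -0.17 ± 0.15 with BETp (adjusted p = 0.755) and -0.49 ± 0.15 with mTORi (0.417).
With BETp + mTORi against BETp 0 of the 10 were called, against 0% of all genes. At an unadjusted p under 0.05 there were 1 of the 10, against 1840 of the 16060 genes tested. With BETp + mTORi against mTORi 0 of the 10 were called, against 0.0125% of all genes. Here 1 of the 10 had an unadjusted p under 0.05, against 2145 of the 16060. ETV4 was 0.52 ± 0.25 above BETp alone (adjusted p = 0.474) and changed by -0.85 ± 0.25 against mTORi alone (adjusted p = 0.272). With both drugs ETV4 lay between the single agents in both lines, at 6.16 TPM in SNU1079 between 3.76 (BETp) and 15.1 TPM (mTORi), and at 7.77 TPM in SSP25 between 5.39 and 11.7 TPM.

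Departure from additivity, the combination effect minus the sum of the single effects, was called by limma for 0 of the 10 genes and for 0% of all genes. At an unadjusted p under 0.05 there were 0 of the 10, against 322 of the 16060 genes tested. Estimates over both lines ran from -0.09 ± 0.25 (SPRY2) to 0.30 ± 0.24 (SPRED1). The lines differed in direction, with a median over the 10 genes of -0.10 in SNU1079 and 0.44 in SSP25. The 95% interval of ETV4 was -0.61 to 1.09 and that of DUSP6 was -0.54 to 0.92, so sizeable departures in either direction were not detectable here.

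Within-line patterns were compared after each line's mean log2 level was subtracted, over 8 libraries. These correlations are descriptions, since the points share 2 lines and 4 treatments. Of 45 pairs among the 10 genes, 33 had a Pearson r above 0 and 12 below, with a median of 0.38. ETV4 went most closely with SPRED2 (r = 0.92) and SPRY2 (r = 0.89), and SPRED2 also went with ETV5 (r = 0.87). The lowest was DUSP5 with SPRY2 (r = -0.65). Among 10634 genes with a mean of at least 5 TPM, the patterns most like DUSP6 were those of CD22 (r = 0.98), GPSM1 (r = 0.96) and TASP1 (r = 0.96). DUSP6 spanned only 1.92 to 2.41 TPM in SNU1079, so its pattern rested largely on the BETp library of SSP25 (11.9 TPM). Within SSP25, CD22 (2.87 TPM), GPSM1 (8.64 TPM) and TASP1 (2.63 TPM) were lowest in that library, which follows from their choice by likeness. The patterns most like ETV5 were those of MMD (r = 0.98), ZNF217 (r = 0.98) and AIF1L (r = 0.98). MMD was at 56.5 and 60.6 TPM with BETp in SNU1079, against 110 and 103 TPM without it. In SSP25 it was at 14.4 and 13.8 TPM with BETp, against 14.0 and 17.0 TPM without it. This is the layout seen for ETV5, by which MMD was chosen.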

How the data were processed

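Total RNA of 8 libraries was made into dUTP strand-specific libraries and sequenced as paired-end reads. The authors deposited TPM values, 1 table per line with 56269 genes each. The submitters' processing notes name GRCh37, DESeq2 and edgeR. The aligner, the counter and the annotation were not given in the sources used here. Because TPM keeps no depth, no counting interval could be given.

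Columns were mapped to samples by their titles. The 16060 genes that reached 1 TPM in 2 libraries or more were analysed as log2(TPM + 1), so that changes of low genes are understated. limma 3.58.1 in R 4.3.3 (trended eBayes) gave all models. Only BETp present against absent was checked on simulated data, in which no line-specific drug response was planted. Terms were treatment and line for pairwise comparisons and additivity, BETp, mTORi and line for averaged effects and the lines, and line by drug for line differences (2 residual degrees of freedom). Tests were two-sided, with calls at an adjusted p under 0.05 over all genes tested. Nothing says that libraries of a line came from independent experiments. The 2 lines were the only replicates, paired by line.

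The members, lists and tests were chosen with earlier results of these data known. Named genes were the 10 members, genes of other lists called in an averaged or line comparison (up to 4 per list, by p) or else the one with the largest change, and the 3 genes most like DUSP6 and ETV5. Some list members are named beyond the rule where they mark a cell type or frame a count, chosen after their values were seen. GGAA was added as a motif after the longer motifs had been searched. Promoters came from RefSeq, without entries for DUSP4, DUSP5, ETV4 and ETV5. Alternatives were quantile normalization, a pseudocount of 0.1, no filter, a 5 TPM filter, rescaling without mitochondrial genome genes, robust eBayes without trend, no line block and leaving out each of 8 libraries. Figures were drawn with matplotlib in Python.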

Additional observations from a re-analysis of the deposited data

Results flagged for a closer look

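In 3 cases both matched pairs of SNU1079 moved one way and both pairs of SSP25 the opposite way. The BETp effect on DUSP5 was -0.25 in SNU1079 and 0.48 in SSP25 on the log2 scale, a difference of -0.73 ± 0.15 (SE, adjusted p = 0.235 by limma). The mTORi effect on DUSP4 was 0.48 in SNU1079 and -0.20 in SSP25, a difference of 0.69 ± 0.17 (adjusted p = 0.250). The mTORi effect on DUSP6 was -0.09 in SNU1079 and 0.38 in SSP25, a difference of -0.47 ± 0.23 (adjusted p = 0.429). None of the 3 passed the test over all genes, and each rests on 4 libraries per line. The layout was looked for in the members only. Its share over all genes tested was not computed, so the 3 cases cannot be called unusual.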

How the results depend on the processing

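With 1 library per line and treatment, calls for the drugs hung on the settings. Between the lines, 6 to 9 members were called over the alternatives (8 as reported): PHLDA1 lost its call in 3 of 14 and SPRY4 in 1. The 1 member called with BETp present became 0 with a pseudocount of 0.1, no filter, quantile normalization, rescaling without mitochondrial genome genes, robust eBayes without trend and no cell line block, and 0 to 1 when a library was left out. The 0 members called with mTORi became 1 with the filter at 5 TPM. When a library was left out, the mTORi estimate ranged from -0.022 to 0.12 for SPRED2, from -0.0063 to 0.26 for DUSP6 and from -0.018 to 0.31 for SPRY4, and the BETp estimate of DUSP5 from -0.045 to 0.26. With BETp, DUSP10 lost its call in 11, EGR1 in 8 and EPCAM in 12 of 15 alternatives.

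Calls over all genes with BETp present (292) were 202 with the pseudocount of 0.1, 0 without the filter, 476 at 5 TPM, 175 under quantile normalization, 154 after rescaling, 74 with robust eBayes, 0 without the block and 37 to 227 with a library left out. With mTORi (168) they were 18, 4, 483, 9, 49, 1 and 0 in that order, and 1 to 7. With BETp + mTORi against vehicle (291) they were 86, 44, 657, 21, 89, 9 and 0, and 0 to 145, with 0 when the BETp + mTORi library of SSP25 was left out. Under quantile normalization the share of calls that were higher moved to 64.0% from 25.3% with BETp, to 33.3% from 15.5% with mTORi and to 57.1% from 16.2% with BETp + mTORi against vehicle (after rescaling 42.2%, 34.7% and 30.3%), and the median of all genes with BETp + mTORi against vehicle to 0.00 from -0.19. SPRED2 was called higher in SNU1079 after rescaling (adjusted p = 0.0449) and ETV4 lower without the mTORi library of SSP25 (0.0143). Rescaling moved the median of all genes between the lines to 0.18 from 0.05. The cause of these changes was not tested. Read depth, unknown here, limits the low genes most.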
